A study of Mus musculus with 4 samples.

Results

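The genes described here encode the antioxidant defence of the cell and the targets of NRF2, the transcription factor that drives much of it. The list held 33 genes, and 30 of them had a probe set, 1 each, among the 19505 gene symbols of the arrays. No probe set carried the symbol of the peroxiredoxin genes Prdx5 and Prdx6 or of the glucose-6-phosphate dehydrogenase gene G6pdx, which were not analysed here. The genes were divided by function into glutathione (6 measured), thioredoxin and peroxiredoxin (6), superoxide and peroxide removal (7), NADPH supply (3), iron storage (2), and regulators with other NRF2 targets (6).

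The tissue was cerebellum, from C57BL/6N males 10 weeks old. The exposed group (n = 2, replicates 6 and 7) had received 50 mg per kg per day of clothianidin, a neonicotinoid insecticide that activates insect nicotinic acetylcholine receptors. The control group (n = 2, replicates 7 and 9) had received vehicle. Both were dosed by mouth for 4 days during which all mice were tested on the rotarod, a rotating rod that measures motor coordination, and brains were removed straight after that test. The labels name neither the vehicle nor whether RNA of several animals was pooled.

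Total RNA was hybridised to Affymetrix arrays, 1 per sample. Values are given on the log2 scale, so that a difference of 1 is a 2-fold difference. The median log2 value over the 22206 probe sets was 6.49 and 6.5 on the clothianidin arrays and 6.5 and 6.54 on the vehicle arrays. Markers of the 2 main neurons of the cerebellum were present at high levels. The 9 granule cell markers averaged 15.9 and 15.4 with clothianidin and 15.5 and 15.3 with vehicle. The 8 genes taken as Purkinje cell markers were Calb1, Pcp2, Pcp4, Car8, Ppp1r17, Slc1a6, Gad1 and Gad2. They averaged 15.4 and 15.3 with clothianidin and 15.1 and 14.9 with vehicle. The labels call the samples separate and say nothing further, so the spread behind each p-value could be technical. Depth is not defined for arrays, and the number of arrays limits the precision.

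NRF2, encoded by Nfe2l2, is held at a low level in resting cells because KEAP1 presents it for degradation. Electrophiles and oxidants modify cysteines of KEAP1, NRF2 then accumulates, pairs with small MAF proteins and binds the antioxidant response element in the promoters of its targets. The products make glutathione, reduce thioredoxin, remove peroxides, supply NADPH for these reductions, degrade haem and store iron. In the brain astrocytes are known for a strong NRF2 response, and neurons for a weaker one.

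The antioxidant response element was searched as the letters TGACNNNGC, on both strands, in the RefSeq promoter windows of GRCm38.p6, which run from 250 bases before to 50 after each gene's start. Windows were given for 27 of the 33 genes, and none for Gclc, Gsr, Gsta4, Hmox1, Prdx6 and Sod3. Of these 27 genes, 9 held the element in at least 1 window, a share of 33.3%, against 14.0% of the 27025 genes in the table and 12.4% of its 32851 windows. A match of these letters is a description and not a binding site. Of the classical NRF2 targets, Hmox1 and Gclc were thus not searched, and Nqo1 and Slc7a11 had no match. Gclm, Srxn1 and Txnrd1 held a match, and their windows are shown because NRF2 is known to act through this element. Whether NRF2 uses these matches was not tested, and other spellings of the element were not searched. The windows are written along the gene, with the match in capitals, which in all 3 reads TGACNNNGC on the opposite strand. They lie at chr3:122245307-122245606 (plus strand) for Gclm, chr2:152105274-152105573 (plus strand) for Srxn1 and chr10:82858956-82859255 (plus strand, 1 of 3 windows) for Txnrd1.
Gclm: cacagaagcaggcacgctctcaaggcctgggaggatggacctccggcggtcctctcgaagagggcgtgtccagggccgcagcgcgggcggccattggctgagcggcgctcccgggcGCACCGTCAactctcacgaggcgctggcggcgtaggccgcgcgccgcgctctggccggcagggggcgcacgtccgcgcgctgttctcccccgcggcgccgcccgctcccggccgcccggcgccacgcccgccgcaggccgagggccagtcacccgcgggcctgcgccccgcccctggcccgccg
Srxn1: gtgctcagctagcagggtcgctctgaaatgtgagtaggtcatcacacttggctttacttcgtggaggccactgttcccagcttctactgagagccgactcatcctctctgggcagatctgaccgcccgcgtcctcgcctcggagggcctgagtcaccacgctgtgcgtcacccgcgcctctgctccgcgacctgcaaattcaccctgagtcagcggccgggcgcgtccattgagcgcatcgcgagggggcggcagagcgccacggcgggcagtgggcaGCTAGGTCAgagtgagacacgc
Txnrd1: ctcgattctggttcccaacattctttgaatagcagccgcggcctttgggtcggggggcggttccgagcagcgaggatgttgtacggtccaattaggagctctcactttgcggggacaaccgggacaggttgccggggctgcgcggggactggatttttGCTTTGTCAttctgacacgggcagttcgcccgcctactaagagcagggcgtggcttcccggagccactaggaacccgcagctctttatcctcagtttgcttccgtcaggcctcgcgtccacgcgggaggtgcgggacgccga
The element ran from -134 to -126 in Gclm, from 29 to 37 in Srxn1 and from -92 to -84 in Txnrd1, counted from the gene's start. The other 6 genes that held it are given with the element as read on its own strand, to show how its variable bases differ among members.
Prdx1: TGACTCAGC
Me1: TGACTCAGC
G6pdx: TGACTGAGC
Nfe2l2: TGACTCCGC
Sod1: TGACCACGC
Pgd: TGACATTGC
Prdx1 and Me1 held the same letters. The element of Prdx1 lay at -133 to -125 and that of Me1 at -6 to 3. Among measured genes with a window, the 8 that held the element had log2 differences from -0.36 to 0.52, with a median of 0.31, of which 6 were positive and 2 negative. The 17 that did not had differences from -0.76 to 0.35, with a median of 0.12, 10 of them positive and 7 negative. The ranges overlap, and the medians were not tested.

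The comparison of clothianidin with vehicle asked whether short exposure shifted these transcripts. None of the 30 genes passed limma, a linear model that borrows the spread of all probe sets, at an adjusted p of 0.05 over all of them, where 0.0% of 22206 probe sets were called and every adjusted p was at least 0.997. At an unadjusted limma p under 0.05 there was 1 gene, Gss, which was lower, against 4.23% of all probe sets (2.3% higher and 1.93% lower). Groups were at least 1.5-fold apart without overlap for 2 genes, Gss and Cat, both lower with clothianidin, against 7.61% of all probe sets (4.04% higher and 3.57% lower). Groups did not overlap, whatever the size, for 9 genes, 4 higher and 5 lower, against 30.6% of all probe sets (15.1% higher and 15.5% lower). At a 1.2-fold minimum there were 6 such genes, against 24.1% of all probe sets, and at a 2-fold minimum 0, against 0.928%. These counts lie near the background. An exact permutation test of 2 arrays against 2 cannot give a p below 0.333.

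Over the whole list the log2 difference was positive for 20 genes and negative for 10, and its median was 0.12. Over all probe sets the median was -0.01, and 48.1% were higher. That background depended on expression. After the less expressed probe sets were dropped by the stricter filter, the 11106 that remained had a median of 0.065. The 27 listed genes among them had a median of 0.12, with 18 higher and 9 lower. The direction of the list rested on single arrays. Its median was -0.05 without vehicle replicate 9, with 13 genes higher and 17 lower, and -0.06 without clothianidin replicate 7, with 14 higher and 16 lower. With clothianidin replicate 6 left out it was 0.18, and with vehicle replicate 7 left out 0.27. The median over all probe sets stayed between -0.02 and 0.02 in these fits. In a bulk tissue, fewer cells of a type and less RNA per cell cannot be told apart.

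**Figure D1:**
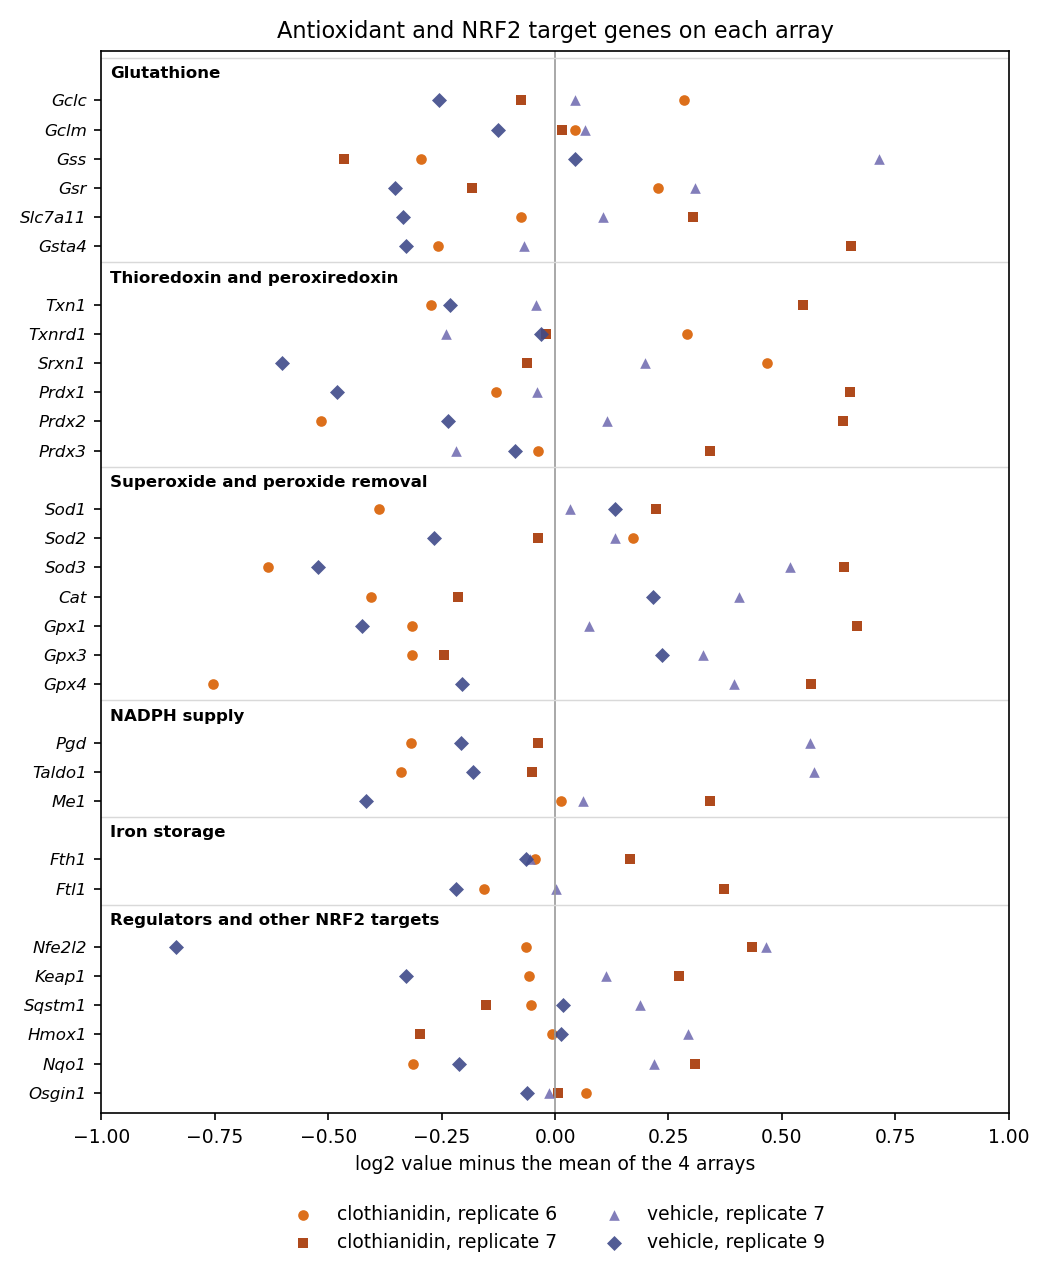
Log2 value of each measured gene on each of the 4 arrays, minus the mean of the 4 arrays, with genes down the page by function. Circles and squares are clothianidin arrays, triangles and diamonds vehicle arrays. Clothianidin replicate 7 was the highest array for 15 of 30 genes and vehicle replicate 9 for 0 of 30, while vehicle replicate 9 was the lowest for 15.

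Glutathione synthesis begins with glutamate-cysteine ligase, whose catalytic subunit is Gclc and whose modifier subunit is Gclm. Gclc was at 10.59 and 10.23 with clothianidin and 10.35 and 10.05 with vehicle. Gclm was at 12.62 and 12.59 with clothianidin and 12.64 and 12.45 with vehicle. For both the groups overlapped, and the log2 differences were 0.21 (SE 0.29) for Gclc and 0.06 (SE 0.27) for Gclm. Both are classical NRF2 targets. With each array left out Gclc ranged from 0.03 to 0.39, and Gclm from -0.035 to 0.15.

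Gss, the glutathione synthetase that completes the tripeptide, had the lowest difference of the 30 genes. It was at 7.69 and 7.52 with clothianidin and 8.70 and 8.03 with vehicle. Both clothianidin values lay below both vehicle values. The log2 difference was -0.76 (SE 0.32), which is 1.69-fold lower, with a 95% interval from -1.49 to -0.03, an unadjusted limma p of 0.0432 and a limma adjusted p of 0.997. Its direction held with each array left out, from -1.10 without vehicle replicate 9 to -0.42 without vehicle replicate 7, so its size depended on vehicle replicate 7. The unadjusted limma p of Gss was 0.0517 with median centring and 0.0555 with other eBayes settings. It was 0.0276 with quantile normalization and stayed under 0.05 with the filters on level and with 1 probe set per gene. Without moderation the unadjusted p of the linear model was 0.159.

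Slc7a11, the cystine importer that feeds glutathione synthesis, was at 11.28 and 11.66 with clothianidin and 11.46 and 11.02 with vehicle, a log2 difference of 0.23 (SE 0.30), which ranged from 0.01 without vehicle replicate 9 to 0.45 without vehicle replicate 7. Gsr, which reduces oxidised glutathione with NADPH, was at 11.04 and 10.63 with clothianidin and 11.12 and 10.46 with vehicle, with 0.04 (SE 0.33). Gsta4, a glutathione transferase for the lipid peroxidation product 4-hydroxynonenal, was at 10.16 and 11.07 with clothianidin and 10.35 and 10.09 with vehicle, with 0.40 (SE 0.36). The groups overlapped for all 3, and Gsta4 stood out on clothianidin replicate 7 only. Without that array its difference was -0.06. The glutathione group had 5 of 6 genes higher and a median difference of 0.14, which was 0.37 when vehicle replicate 7 was left out and -0.013 when vehicle replicate 9 was.

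All 6 measured thioredoxin and peroxiredoxin genes had a higher mean with clothianidin, with a median difference of 0.29. Each of them had a gap between replicates of 1 group that was larger than the difference between groups. Prdx1, a cytosolic peroxidase and NRF2 target, was at 13.61 and 14.39 with clothianidin and 13.70 and 13.26 with vehicle. Its log2 difference of 0.52 (SE 0.35) was the highest of the 30 genes, with a 95% interval from -0.28 to 1.32. The clothianidin value of replicate 6 lay between the vehicle values, and the difference was 0.13 without clothianidin replicate 7 and 0.91 without clothianidin replicate 6.

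Prdx2, a peroxidase abundant in neurons and red cells, was at 13.50 and 14.65 with clothianidin and 14.13 and 13.78 with vehicle, so that the clothianidin arrays lay on both sides of the vehicle arrays. Prdx3, the mitochondrial peroxidase, was at 9.82 and 10.20 with clothianidin and 9.64 and 9.77 with vehicle, without overlap and with a difference of 0.31 (SE 0.28), or 0.12 without clothianidin replicate 7. Txn1, the thioredoxin that recycles these peroxidases, was at 11.13 and 11.95 with clothianidin and 11.36 and 11.17 with vehicle. The clothianidin replicate 6 value of Txn1 was the lowest of the 4 and the replicate 7 value the highest. The differences were 0.28 (SE 0.34) for Txn1 and 0.12 (SE 0.40) for Prdx2, and without clothianidin replicate 7 they were -0.14 and -0.46.

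Txnrd1, the selenoenzyme that reduces thioredoxin, was at 11.55 and 11.24 with clothianidin and 11.02 and 11.23 with vehicle. The groups were apart by 0.01 at their nearest values, and the difference was 0.27 (SE 0.28), or 0.12 without clothianidin replicate 6. Srxn1, sulfiredoxin, which repairs overoxidised peroxiredoxins, was at 9.14 and 8.61 with clothianidin and 8.87 and 8.07 with vehicle, with 0.41 (SE 0.36). Srxn1 was highest on clothianidin replicate 6, whereas the peroxiredoxins were highest on clothianidin replicate 7. Left-out fits gave Srxn1 0.005 without vehicle replicate 9, and 0.80 without vehicle replicate 7. Taken as a group the median of the 6 genes was above 0 with each array left out, from 0.12 without clothianidin replicate 7 to 0.59 without clothianidin replicate 6.

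**Figure D2:**
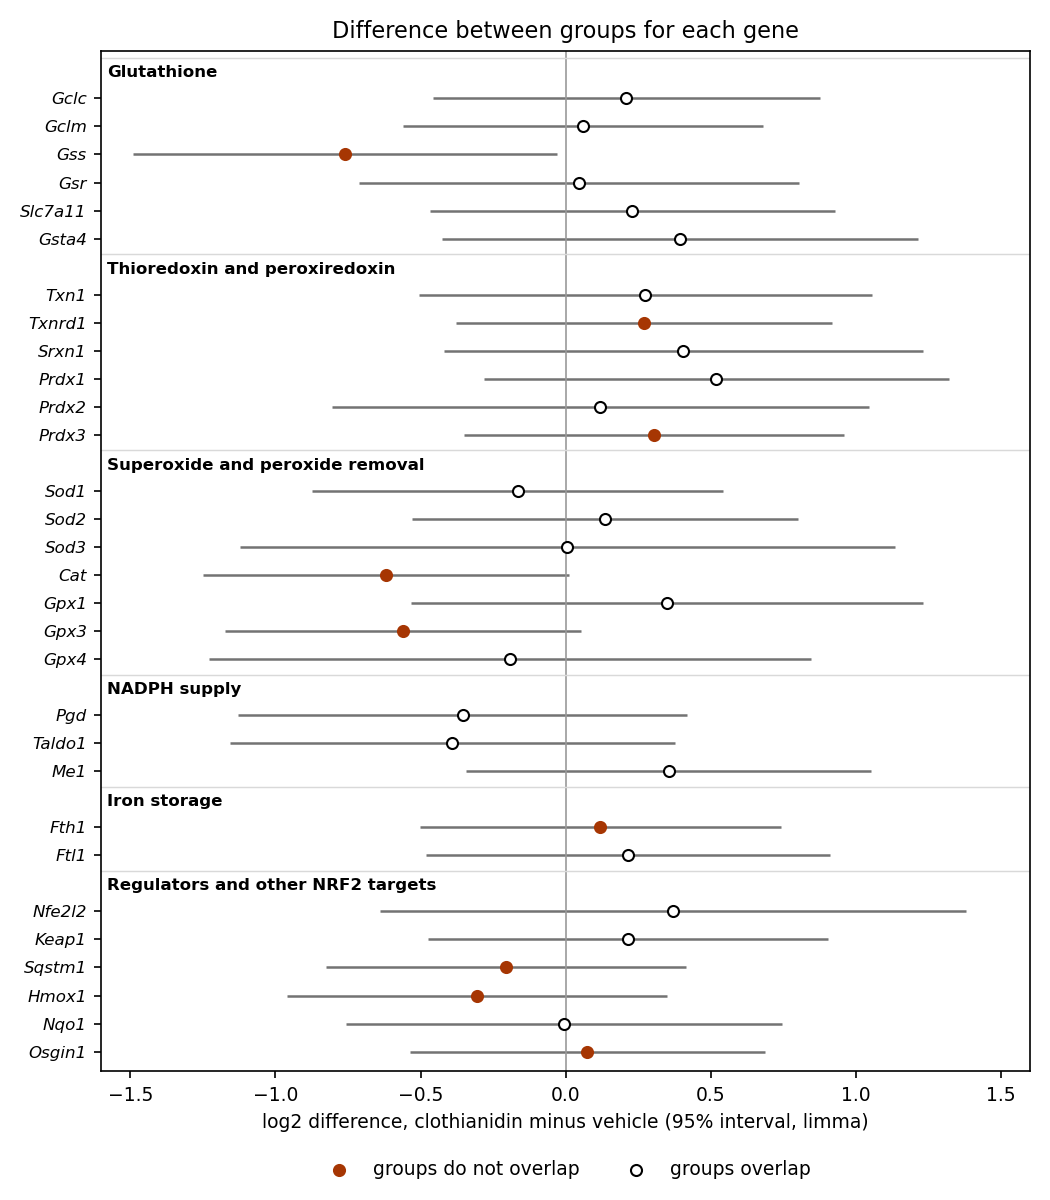
Log2 difference of each gene, clothianidin minus vehicle, with its 95% interval from limma. Filled points are the 9 genes whose groups do not overlap. The interval leaves out 0 for 1 gene, Gss.

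The enzymes that remove superoxide and peroxide did not move together, with 3 of 7 higher, 4 lower and a median difference of -0.17. Catalase, Cat, which breaks down hydrogen peroxide in peroxisomes, was at 12.30 and 12.49 with clothianidin and 13.11 and 12.92 with vehicle. Both clothianidin values lay below both vehicle values, and the replicates of each group were 0.19 apart. The log2 difference was -0.62 (SE 0.27), which is 1.54-fold lower, with a 95% interval from -1.25 to 0.01, an unadjusted limma p of 0.0531 and a limma adjusted p of 0.997. It ranged from -0.72 to -0.52 with each array left out. The unadjusted limma p of Cat was 0.0286 with quantile normalization and 0.0486 with other eBayes settings. It was 0.0654 with median centring and stayed above 0.05 with the filters on level and with 1 probe set per gene. Without moderation the unadjusted p of the linear model was 0.0439 for Cat.

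Gpx3, the secreted glutathione peroxidase, was at 7.10 and 7.17 with clothianidin and 7.74 and 7.65 with vehicle. Its replicates were within 0.09 of each other in both groups. The difference was -0.56 (SE 0.27), just under 1.5-fold, with a 95% interval from -1.17 to 0.05, an unadjusted limma p of 0.0688 and a limma adjusted p of 0.997. It ranged from -0.61 to -0.52 with each array left out. The unadjusted limma p of Gpx3 was 0.0511 with quantile normalization and 0.105 with other eBayes settings. Without moderation the unadjusted p of the linear model was 0.0102 for Gpx3. Cat, Gpx3 and Gss were the 3 genes with the smallest p among the 30.

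The other glutathione peroxidases differed more between the clothianidin arrays than between groups. Gpx1, the cytosolic enzyme, was at 11.74 and 12.72 with clothianidin and 12.13 and 11.63 with vehicle, a difference of 0.35 (SE 0.38). Gpx4, which protects membrane lipids and restrains ferroptosis, was at 13.14 and 14.46 with clothianidin and 14.29 and 13.69 with vehicle, a difference of -0.19 (SE 0.45). On Gpx4 the clothianidin arrays were the lowest and the highest of the 4, 1.32 apart. Its difference was 0.47 when clothianidin replicate 6 was left out, and -0.85 when replicate 7 was.

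The superoxide dismutases convert superoxide to hydrogen peroxide. Sod1, the cytosolic form, was at 12.61 and 13.22 with clothianidin and 13.03 and 13.13 with vehicle, a difference of -0.17 (SE 0.31). Sod2, the mitochondrial form, was at 13.87 and 13.66 with clothianidin and 13.83 and 13.43 with vehicle, a difference of 0.14 (SE 0.29). Sod3, the extracellular form, was at 8.41 and 9.68 with clothianidin and 9.56 and 8.52 with vehicle, a difference of 0.005 (SE 0.49). For Sod3 both groups held a low and a high array, and the means were almost the same.

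NADPH supply was represented by 3 genes, 2 lower and 1 higher. Pgd, of the oxidative pentose phosphate pathway, was at 10.53 and 10.81 with clothianidin and 11.41 and 10.64 with vehicle. Taldo1, the transaldolase of its non-oxidative branch, was at 7.78 and 8.07 with clothianidin and 8.69 and 7.94 with vehicle. Both were highest on vehicle replicate 7. Their differences were -0.36 (SE 0.34) for Pgd and -0.39 (SE 0.33) for Taldo1, and without vehicle replicate 7 they were 0.03 and -0.02. Me1, the cytosolic malic enzyme, was at 11.05 and 11.38 with clothianidin and 11.10 and 10.62 with vehicle, a difference of 0.36 (SE 0.30), which ranged from 0.12 without vehicle replicate 9 to 0.60 without vehicle replicate 7.

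Ferritin stores iron in a shell of heavy and light chains. Fth1, the heavy chain, was at 18.52 and 18.73 with clothianidin and 18.51 and 18.50 with vehicle, close to the top of the arrays' range. Ftl1, the light chain, was at 10.36 and 10.89 with clothianidin and 10.52 and 10.30 with vehicle. The differences were 0.12 (SE 0.27) for Fth1 and 0.22 (SE 0.30) for Ftl1, and both genes were highest on clothianidin replicate 7. Without that array they were 0.02 for Fth1 and -0.05 for Ftl1. Ferritin genes have many processed copies in the genome, and whether the probes also read those was not tested.

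The differences of the genes of the NRF2 switch itself were below their standard errors. Nfe2l2 was at 5.25 and 5.75 with clothianidin and 5.78 and 4.48 with vehicle, a difference of 0.37 (SE 0.44), and vehicle replicate 9 lay well below the other 3 arrays. Leaving out that array gave a difference of -0.28, and leaving out vehicle replicate 7 gave 1.02. Keap1 was at 9.36 and 9.69 with clothianidin and 9.53 and 9.09 with vehicle, with 0.22 (SE 0.30). Sqstm1, which encodes p62, a KEAP1-binding autophagy receptor, was at 12.83 and 12.73 with clothianidin and 13.07 and 12.90 with vehicle, a difference of -0.21 (SE 0.27) without overlap.

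Hmox1 and Nqo1 are often read as reporters of NRF2 activity, and neither passed the test. Hmox1, which encodes haem oxygenase 1, was at 6.39 and 6.10 with clothianidin and 6.69 and 6.41 with vehicle, a difference of -0.31 (SE 0.28) with a 95% interval from -0.96 to 0.35. Nqo1, a quinone reductase, was at 6.70 and 7.32 with clothianidin and 7.23 and 6.80 with vehicle, a difference of -0.005 (SE 0.33) with a 95% interval from -0.76 to 0.75. The direction of Nqo1 was not settled, since its difference was 0.02 with median centring, 0.0013 with quantile normalization, and 0.30 without clothianidin replicate 6 against -0.32 without clothianidin replicate 7. That of Hmox1 ranged from -0.45 to -0.16 with each array left out. For neither did the interval reach a 2-fold rise.

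Osgin1, an oxidative stress-induced growth inhibitor, was at 3.24 and 3.18 with clothianidin and 3.16 and 3.11 with vehicle, a difference of 0.075 (SE 0.27). These values lay below the medians of the 1414 olfactory and vomeronasal receptor probe sets, which were 4.02 and 4.19 on the clothianidin arrays and 4.18 and 4.33 on the vehicle arrays, so a transcript was not shown there. Osgin1 and Nfe2l2 were the 2 genes whose mean lay below the 90th percentile of the receptor means, 5.48, so their differences bound no change. Of the other 28 genes, 20 had an upper bound under a log2 difference of 1, and for 14 the whole interval lay within 2-fold in both directions. Fth1 is counted among these, near the top of the range, where differences may be compressed. Signal over background was not given in the sources used here.

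For 24 of 30 genes a gap between replicates of 1 group exceeded the difference between groups, a share of 80.0%, against 79.7% of all probe sets. Clothianidin replicate 7 was above replicate 6 for 20 genes and below for 10, with a median gap of 0.31, while over all probe sets it was above for 48.5% with a median of -0.01. Vehicle replicate 7 was above replicate 9 for 27 of 30 genes, a share of 90.0% with a median gap of 0.38. Over all probe sets the share was 54.4% with a median of 0.05. In the lists of cell type markers that share ran from 54.5% for Bergmann glia and astrocytes to 87.5% for Purkinje cells. The clothianidin arrays were at least 1.5-fold apart for 9 genes, a share of 30.0%, against 21.5% of all probe sets, and the vehicle arrays for 8 genes, a share of 26.7%, against 23.8%.

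**Figure D3:**
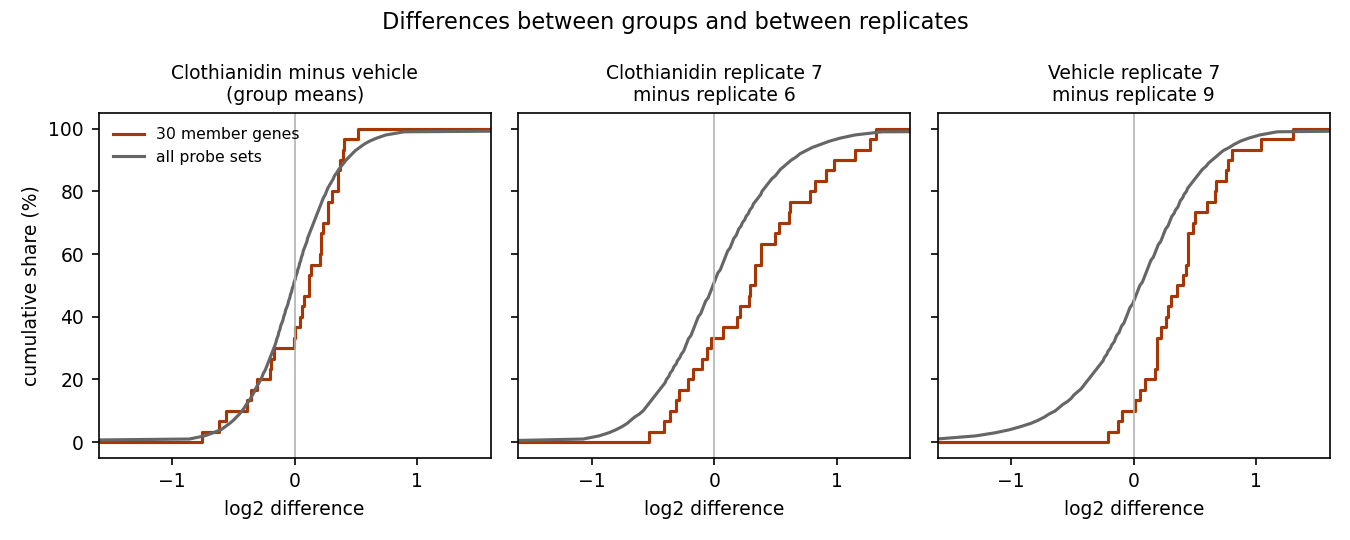
Cumulative share of log2 differences for the 30 genes and for all probe sets, for clothianidin minus vehicle (left), between the clothianidin replicates (middle) and between the vehicle replicates (right). The curve of the genes lies to the right of that of all probe sets in the middle and right panels, with medians of 0.31 against -0.01 and 0.38 against 0.05.

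The median deviation of the 30 genes from their 4-array mean was -0.10 and 0.19 on clothianidin replicates 6 and 7 and 0.11 and -0.22 on vehicle replicates 7 and 9. Markers of neurons and other cells also differed across these arrays. Purkinje cell markers were higher with clothianidin for 7 of 8 genes (median 0.22) and granule cell markers for 6 of 9 (median 0.27), with the levels given above. Oligodendrocyte markers were lower with clothianidin for 11 of 11 measured genes, with a median of -0.19, and averaged 12.09 and 12.01 with clothianidin and 12.50 and 12.23 with vehicle. Endothelial markers (4 of 10 higher) averaged 9.03 and 9.19 with clothianidin and 9.36 and 8.98 with vehicle, and microglial markers (2 of 10 higher) 6.76 and 6.69 with clothianidin and 6.93 and 6.65 with vehicle. Oligodendrocyte, endothelial and microglial lists were highest on vehicle replicate 7. Choroid plexus markers (5 of 10 higher) averaged 5.82 and 6.91 with clothianidin and 5.85 and 5.66 with vehicle, with Ttr at 13.96 on clothianidin replicate 7 and between 5.67 and 6.38 on the other arrays. The part of these cells in the values of the antioxidant genes was not tested. Markers of blood (2 of 3 measured higher) and of meninges and other mesenchyme (6 of 9 higher) had median differences of 0.20 and 0.13. Bergmann glia and astrocyte markers, 6 of 11 higher, averaged 13.57 and 13.65 with clothianidin and 13.58 and 13.47 with vehicle.

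**Figure D4:**
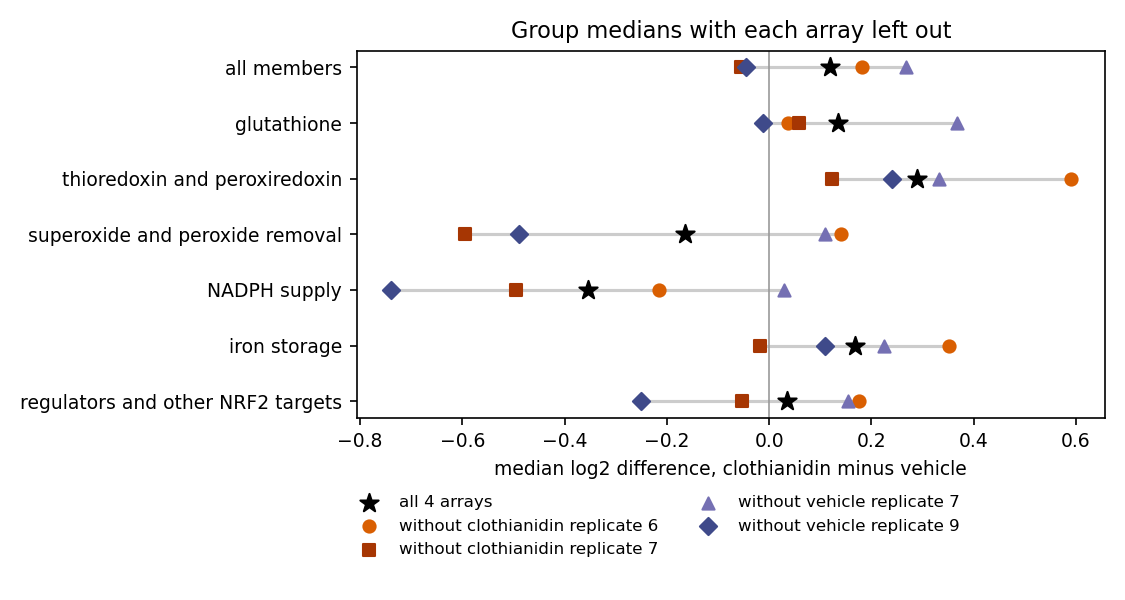
Median log2 difference, clothianidin minus vehicle, of all 30 genes and of each functional group, with all 4 arrays (star) and with each array left out. The thioredoxin and peroxiredoxin median stays above 0, between 0.12 and 0.59, and every other median lies on both sides of 0.

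A wider list held 97 measured genes outside the 30, which were other genes of the same pathways and 13 genes for radical sources. Of the 97, 51 were higher and 46 lower, with a median difference of 0.02. None passed limma over all probe sets, and 4 had an unadjusted limma p under 0.05, 2 higher and 2 lower, against 4.23% of all probe sets. Gstp1, a glutathione transferase of the pi class, was at 11.42 and 12.20 with clothianidin and 10.71 and 10.87 with vehicle, a log2 difference of 1.02 (SE 0.33) without overlap. It has close paralogs that its probes may not separate. Abcb6, a porphyrin transporter, was at 4.27 and 4.30 with clothianidin and 5.65 and 5.08 with vehicle, a measured difference of -1.08 (SE 0.30). Both its group means lay below the 90th percentile of the receptor means, so that size is uncertain.

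Nitric oxide synthases are sources of radicals. Nos1, the neuronal form, was at 12.54 and 11.97 with clothianidin and 11.41 and 11.46 with vehicle, a difference of 0.82 (SE 0.30). Nos2, the inducible form, was at 4.63 and 4.21 with clothianidin and 5.09 and 5.47 with vehicle, a difference of -0.86 (SE 0.30). The groups did not overlap for either. Both group means of Nos2 lay below the 90th percentile of the receptor means, so the size and direction of its difference are uncertain. The same holds for Nos3, the endothelial form, at 5.36 and 4.97 with clothianidin and 4.76 and 4.85 with vehicle, a difference of 0.36 (SE 0.28). Of 13 genes for radical sources 5 were higher and 8 lower, with a median of -0.06.

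The other lists held no gene with an unadjusted p under 0.05. Among 15 further genes of NRF2 regulation, 10 were higher and 5 lower (median 0.06), and the small MAF partners of NRF2 had differences of 0.68 (SE 0.36) for Mafg and -0.45 (SE 0.27) for Mafk. Among 21 other thiol and peroxide repair genes, 14 were higher and 7 lower (median 0.14), and the sestrins Sesn1 and Sesn2, stress-responsive regulators of growth signalling, had 0.57 (SE 0.31) and -0.59 (SE 0.32). Among 12 other NADPH genes, 6 were higher and 6 lower. H6pd, the pentose phosphate enzyme of the endoplasmic reticulum, had -0.68 (SE 0.30), and Idh2, a mitochondrial isocitrate dehydrogenase, had 0.38 (SE 0.29). In the lists that held Gstp1 and Abcb6, 12 of 21 other glutathione genes and 4 of 15 haem and iron genes were higher, with medians of 0.04 and -0.07.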

How the data were processed

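Per the labels' protocols, total RNA of 4 cerebellum samples was amplified and labelled with GeneChip WT kits. Per the submitters' processing notes the authors used RMA to make the deposited log2 values, 1 per probe set and to 2 decimals. Its version and settings are not given in the sources used here, and the log base was taken as 2, on which all folds rest.

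Probe sets were named through the platform annotation (19572 of 22206 had 1 symbol), and gene identifiers gave the same RefSeq symbol for all 30 genes. The 4 samples were grouped by title. Differences, clothianidin minus vehicle, were fitted on all probe sets with limma 3.58.1 in R 4.3.3 (lmFit, eBayes, Benjamini-Hochberg adjustment at 0.05). The script was tested on simulated data. Intervals are 95% limma intervals. The median standard error was 0.298. Fold counts took groups at least 1.5-fold apart without overlap.

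The members, lists and rules were chosen with earlier results of these data known. All members are named, with, in each wider list, the genes at an unadjusted p under 0.05 or else the 2 with the smallest p. Promoters were printed for classical targets holding the element. Alternatives were median centring, quantile normalization, 1 probe set per gene, filters on level (at or above the median, or the 25th percentile), other eBayes settings, no moderation, other thresholds and leaving out each array. The medians of the functional groups under these were added after seeing the data.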

Additional observations from a re-analysis of the deposited data

How the results depend on the processing

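No member passed limma over all probe sets under any alternative run. An unadjusted limma p under 0.05 gave, as reported, 1 member, Gss, and 940 probe sets. Which members fell under 0.05 unadjusted depended on the setting, as given above for Gss, Cat and Gpx3. Without moderation 8 probe sets were called, none of them a member, and with each array left out the count ranged from 0 to 1, the 1 being Ttr without clothianidin replicate 6. In these fits a group holds 1 array, which is assumed to vary like the other group. Members apart by 1.5-fold without overlap ranged from 5 to 7 with each array left out. In those fits 13.2% to 18.6% of all probe sets were apart in this way. Such members were 6 at 1.2-fold and 0 at 2-fold. They were 3 after quantile normalization, where Gpx3 joined. There 6.66% of all probe sets were apart by 1.5-fold, against 7.61% as reported. The median difference of the list ranged from -0.06 to 0.27 with each array left out and was 0.14 with median centring and 0.05 with quantile normalization. Of 30 members, 15 kept their direction with every array left out, and 15 did not. Those 15 had differences of -0.035 to 0.15 for Gclm, -0.28 to 0.38 for Gsr, -0.060 to 0.85 for Gsta4, -0.14 to 0.69 for Txn1, -0.46 to 0.69 for Prdx2, -0.47 to 0.14 for Sod1, -0.065 to 0.34 for Sod2, -0.63 to 0.64 for Sod3, -0.14 to 0.84 for Gpx1, -0.85 to 0.47 for Gpx4, -0.74 to 0.030 for Pgd, -0.050 to 0.48 for Ftl1, -0.28 to 1.02 for Nfe2l2, -0.005 to 0.43 for Keap1 and -0.32 to 0.30 for Nqo1. Quantile normalization also turned Gclm to -0.042, Gsr to -0.046, Sod3 to -0.068 and Nqo1 to 0.0013, and median centring turned Nqo1 to 0.02. The cause was not tested. Each member had 1 probe set, so the alternatives on other probe sets of a gene were not run. No paired analysis was run because the labels do not say that any arrays are paired, also not those that share replicate number 7.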
